A study of Homo sapiens with 6 samples.

Results

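The genes described here encode the nuclear parts of oxidative phosphorylation: the subunits of the respiratory chain complexes I to IV and of the ATP synthase (complex V). They were taken by name, without use of any measured value, as rows whose symbol is NDUF with A, B, C, S or V and a number, SDHA to SDHD, or begins with UQCR, COX4 to COX8 followed by A, B or C, or ATP5. This gave 86 of the 25365 rows of the table. The pseudogene rows UQCRBP1 and ATP5EP2 were left out, and 84 genes remained, 37 of complex I, 4 of complex II, 9 of complex III, 15 of complex IV and 19 of complex V. By RNA-seq the mRNA of MDA-MB-231, an established triple-negative breast cancer cell line, was measured in 3 libraries from cells given 20 nM si-NRDE2-2 (Ambion s30064) and 3 from cells given 20 nM si-Control (Ambion AM4611), a negative control siRNA. RNA was taken 48 h after transfection with Lipofectamine RNAiMAX in both groups. The NRDE2 protein acts in the nucleus with the RNA helicase MTREX, and 1 siRNA against it was used, so effects of that siRNA on other mRNAs cannot be told apart from loss of NRDE2. Nothing says that the replicates were separate cultures, and p-values therefore measure only the spread between these libraries, which may be technical.

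Complex I takes electrons from NADH and complex II takes them from succinate. Both pass them to ubiquinone, complex III passes them on to cytochrome c and complex IV to oxygen, and the ATP synthase uses the proton gradient that complexes I, III and IV build up. Most subunits are encoded in the nucleus and imported, while the core of the proton-pumping complexes also needs subunits made from mitochondrial DNA, so assembly draws on mRNAs of both genomes. Nuclear respiratory factor 1 (NRF1), the ETS-family factor GABP (also called NRF-2) and YY1 are known to bind many promoters of these genes.

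Promoters of SDHB and SDHD are shown because these genes of complex II moved in opposite directions. Promoters, from 250 bases before to 50 after the start in RefSeq (GRCh38.p14, the first start listed for a symbol), were matched for 66 of the 84 genes. The NRF1 letters GCGCANGCG, searched on both strands as all letters here, were in 31.8% of these, against 15.6% of the promoters of all genes tested and 8.05% of 27305 promoters. The ETS letters CCGGAAG were in 27.3%, against 20.6% and 10.7%, and the YY1 letters AANATGGCG in 24.2%, against 7.47% and 3.37%. Matches of 2 of these motifs overlapped in 0 of the 66 promoters, and 39 of the 66 held at least 1 of them. A match is a run of letters and not a measured binding site. The SDHB promoter (chr1:17053983-17054282, minus strand) holds an ETS and a YY1 match and the SDHD promoter (chr11:112086623-112086922, plus strand) an NRF1 match on each strand, which overlap each other, and an ETS match, the ETS letters of SDHD being read on the other strand. In the lines that follow the matches are in capitals.
SDHB: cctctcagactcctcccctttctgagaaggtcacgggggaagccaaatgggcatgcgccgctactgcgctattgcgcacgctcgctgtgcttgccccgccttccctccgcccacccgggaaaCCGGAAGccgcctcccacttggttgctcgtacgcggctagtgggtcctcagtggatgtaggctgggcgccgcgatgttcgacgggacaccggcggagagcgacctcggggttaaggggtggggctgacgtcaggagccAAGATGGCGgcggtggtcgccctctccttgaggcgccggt
SDHD: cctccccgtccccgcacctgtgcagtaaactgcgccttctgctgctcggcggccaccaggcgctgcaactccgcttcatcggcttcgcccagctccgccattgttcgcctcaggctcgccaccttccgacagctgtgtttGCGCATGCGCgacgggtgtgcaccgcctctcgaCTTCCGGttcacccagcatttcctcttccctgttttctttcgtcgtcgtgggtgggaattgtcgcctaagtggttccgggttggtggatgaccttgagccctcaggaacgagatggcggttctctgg

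A second kind of sequence is shown because 4 of the genes that rose hold it, namely, in the 3′ UTR, the letters GACGTA, the longer form of them GACAGTA or its near twin with a T, GACTGTA. An earlier scan of these same fold changes picked these letters out, so any share here is no independent support. In 1 annotated transcript per gene (GENCODE 29, GRCh38), 1915 of 11047 tested genes with a 3′ UTR held at least 1 of them (17.3%). Among all these genes 40.1% of those with the letters rose and 12.2% fell, against 17.4% and 25.1% of those without, a split by direction that thus runs through the whole table. Of the 78 genes of oxidative phosphorylation tested, 8 did: 4 of the 7 that rose (COX6C, NDUFC2, NDUFV3 and SDHD), 0 of the 8 that fell and 4 of the 63 that were not called (NDUFA9, UQCR11, UQCRB and ATP5S). Shown in capitals in 29 bases each are the sites of NDUFC2 (chr11:78069227-78069255, minus strand), NDUFV3 (chr21:42911566-42911594, plus strand) and SDHD (chr11:112095418-112095446, plus strand), all in the 3′ UTR.
NDUFC2: tagaagcaaaaGACTGTAcctaactggaa
NDUFV3: tttgtagctggGACTGTAggcactggcca
SDHD: ttccctctctaGACAGTAgataccaccta
The match depends on the transcript: it was in 2 of 5 annotated coding transcripts of NDUFC2, 1 of 2 of NDUFV3, 2 of 7 of SDHD and 1 of 8 of COX6C. Counted over any coding transcript, 13 of the 78 genes held the letters, the same 4 that rose and 9 that were not called, which adds ATP5L, NDUFA11, NDUFB2, NDUFB5 and NDUFS7. Whether the siRNA acts through these letters was not tested.

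NRDE2 itself had 0.230, 0.234 and 0.229 FPKM in si-NRDE2-2 replicates 1, 2 and 3, against 4.39, 4.45 and 3.80 FPKM in si-Control replicates 1, 2 and 3 (log2 fold change -3.70 ± 0.10, adjusted p = 4.5e-09, limma on log2(FPKM + 0.1) with Benjamini-Hochberg adjustment over all genes tested, as throughout). Each library therefore matched its label. FPKM, used as deposited, are fragments per length of transcript, scaled for the depth of the library, so that levels of different genes can be set side by side. Depth, estimated from the steps between low values, was 41000000 to 52200000 fragments in the si-NRDE2-2 libraries and 49500000 to 56500000 in the si-Control libraries, and 2 of the 78 genes tested had under 1000 estimated fragments in the shallowest library. Of the markers of this mesenchymal line VIM averaged 1131 ± 17.6 FPKM in si-NRDE2-2 cells and 1200.1 ± 64.9 FPKM in si-Control cells (-0.08 ± 0.06, adjusted p = 0.268). Both CD44 and FN1 were higher with the knockdown, CD44 at 182 ± 1.79 FPKM in si-NRDE2-2 cells and 152 ± 4.86 FPKM in si-Control cells (0.26 ± 0.04, adjusted p = 7.9e-04) and FN1 at 108 ± 5.92 FPKM in si-NRDE2-2 cells and 67.0 ± 2.72 FPKM in si-Control cells (0.68 ± 0.05, adjusted p = 2.4e-06). ESR1 and CDH1 were under 0.5 FPKM and EPCAM at 7.43 to 8.45 FPKM. Whether the difference in CD44 and FN1 bears on the genes of oxidative phosphorylation was not tested. The leukocyte gene PTPRC and the fibroblast gene COL3A1 were under 0.2 FPKM in each library, and the endothelial gene PECAM1 was at 0.958 to 1.18 FPKM in the si-NRDE2-2 libraries and 0.525 to 0.688 FPKM in the si-Control libraries.

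One library stood apart for these genes. In si-Control replicate 3 the median gene of oxidative phosphorylation lay 0.12 above its own mean over the 6 libraries on the log2 scale, against -0.057 in si-Control replicate 1, -0.025 in si-Control replicate 2 and -0.024 to 0.0038 in the si-NRDE2-2 libraries. It held the highest of the 6 values for 65 of the 78 genes tested, and it was above both other control libraries for 76 of them (97.4%), against 42.9% of all genes tested. The shift moved with transcript length. Taken as si-Control replicate 3 minus the mean of si-Control replicates 1 and 2, its median was 0.16 for the genes of oxidative phosphorylation. Over all genes it was 0.12 in the shortest of 5 equal classes of transcripts (median 1174 bases) and -0.11 in the longest. The median transcript of oxidative phosphorylation had 977 bases, against 2965 for all genes tested. In that shortest class, which holds 56 of the 78 genes, si-Control replicate 3 was above both other control libraries for 77.2% of all genes. What made this library differ was not tested, and the counts for each complex and each list are also given without it.

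**Figure D1:**
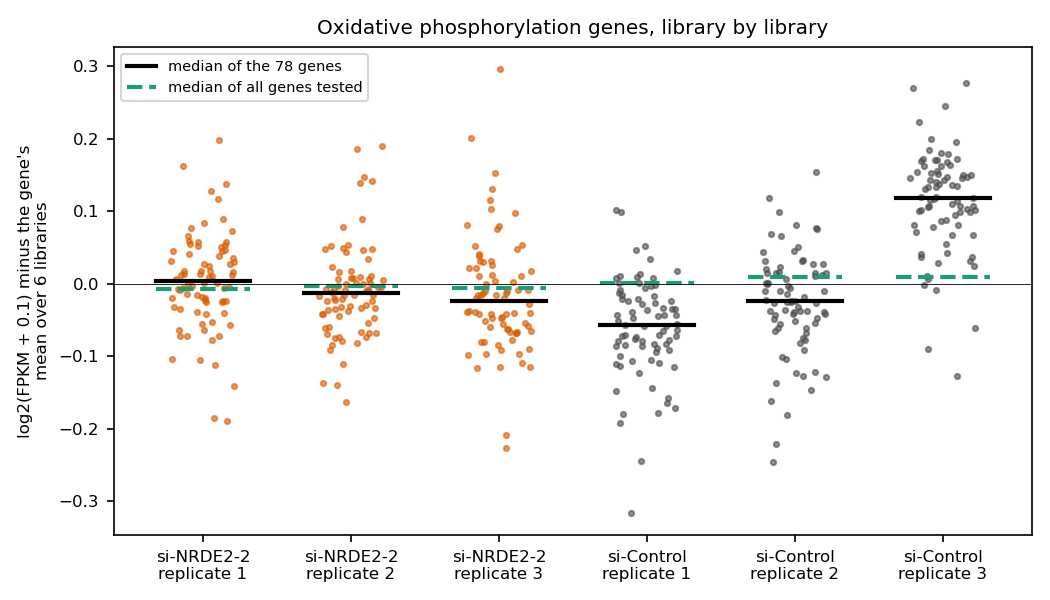
Deviation of each of the 78 tested genes in each library from its own mean over the 6 libraries, in log2(FPKM + 0.1); points are genes, solid lines their median and dashed lines the median of all genes tested. The points of si-Control replicate 3 lie mostly above 0, with a median of 0.12, while the dashed lines of all 6 libraries stay near 0.

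After NRDE2 knockdown few genes of oxidative phosphorylation changed, by small amounts and in both directions. Of the 84 genes 78 passed the filter of at least 1 FPKM in at least 3 libraries, and 15 of these changed at an adjusted p under 0.05 (19.2%), 7 that rose and 8 that fell. Among all 11789 genes tested, 44% changed at that threshold, 20.9% rising and 23% falling. The extremes were both in complex IV, with COX6C highest at 0.37 ± 0.05 and COX5A lowest at -0.32 ± 0.05. Besides these, only NDUFA5, NDUFA7 and NDUFC2 reached a fitted change of 1.2-fold, which makes 5 of the 78 (6.41%), against 25.5% of all genes tested. The median log2 fold change was -0.024 and the median size of a change, whatever its sign, 0.059, against -0.016 and 0.14 for all genes tested. Levels ran over a wide range: 37 of the 78 had a mean of at least 100 FPKM, and 4 (ATP5S, COX7B2, NDUFA5 and NDUFA10) one under 10 FPKM. The median standard error of the 78 (0.056) was close to that of all genes (0.059) with all 6 libraries as deposited. Without si-Control replicate 3 it was 0.039, against 0.058 for all genes. With GC and length trends removed it was 0.032, against 0.044. For 63 of the 78 the 95% confidence interval lay within 1.2-fold in either direction (80.8%, against 44.5% of all genes tested), so that a larger change is outside the interval for most of them.

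The 2 groups had no overlapping values for 24 of the 78 genes (30.8%, against 53.5% of all genes tested). Among abundant transcripts, where most of these genes lay, the share of calls was below that of all genes. Of the genes with a mean of at least 100 FPKM, 5 of 37 in oxidative phosphorylation changed (13.5%), against 33.2% of all genes at that level, and at 50 to 100 FPKM 4 of 26 did (15.4%), against 44.6%. At 20 to 50 FPKM 4 of 10 did (40%), against 49.9%, and at 5 to 20 FPKM 2 of 3 (66.7%), against 46%, while under 5 FPKM 0 of 2 did by limma, against 39.3%. The classes under 50 FPKM hold too few of these genes to show whether their share differed there. In the shortest of the 5 length classes, which holds 56 of the 78, 39% of all genes changed. Without si-Control replicate 3 the count was 22 (28.2%), 15 rising and 7 falling, against 46.6% of all genes, and the median was 0.031. After removal of smooth GC and length trends from each library 25 changed (32.1%, against 55% of all genes), 11 that rose (28.1% of all genes did) and 14 that fell (26.9% of all genes did). With libraries scaled to the same FPKM total 8 rose and 17 fell, and with quantile normalization 7 rose and 18 fell. Across all 17 settings run, 11.5% to 32.1% of the tested genes of oxidative phosphorylation changed and 25.8% to 55% of all genes, and the first share was below the second in each setting.

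**Figure D2:**
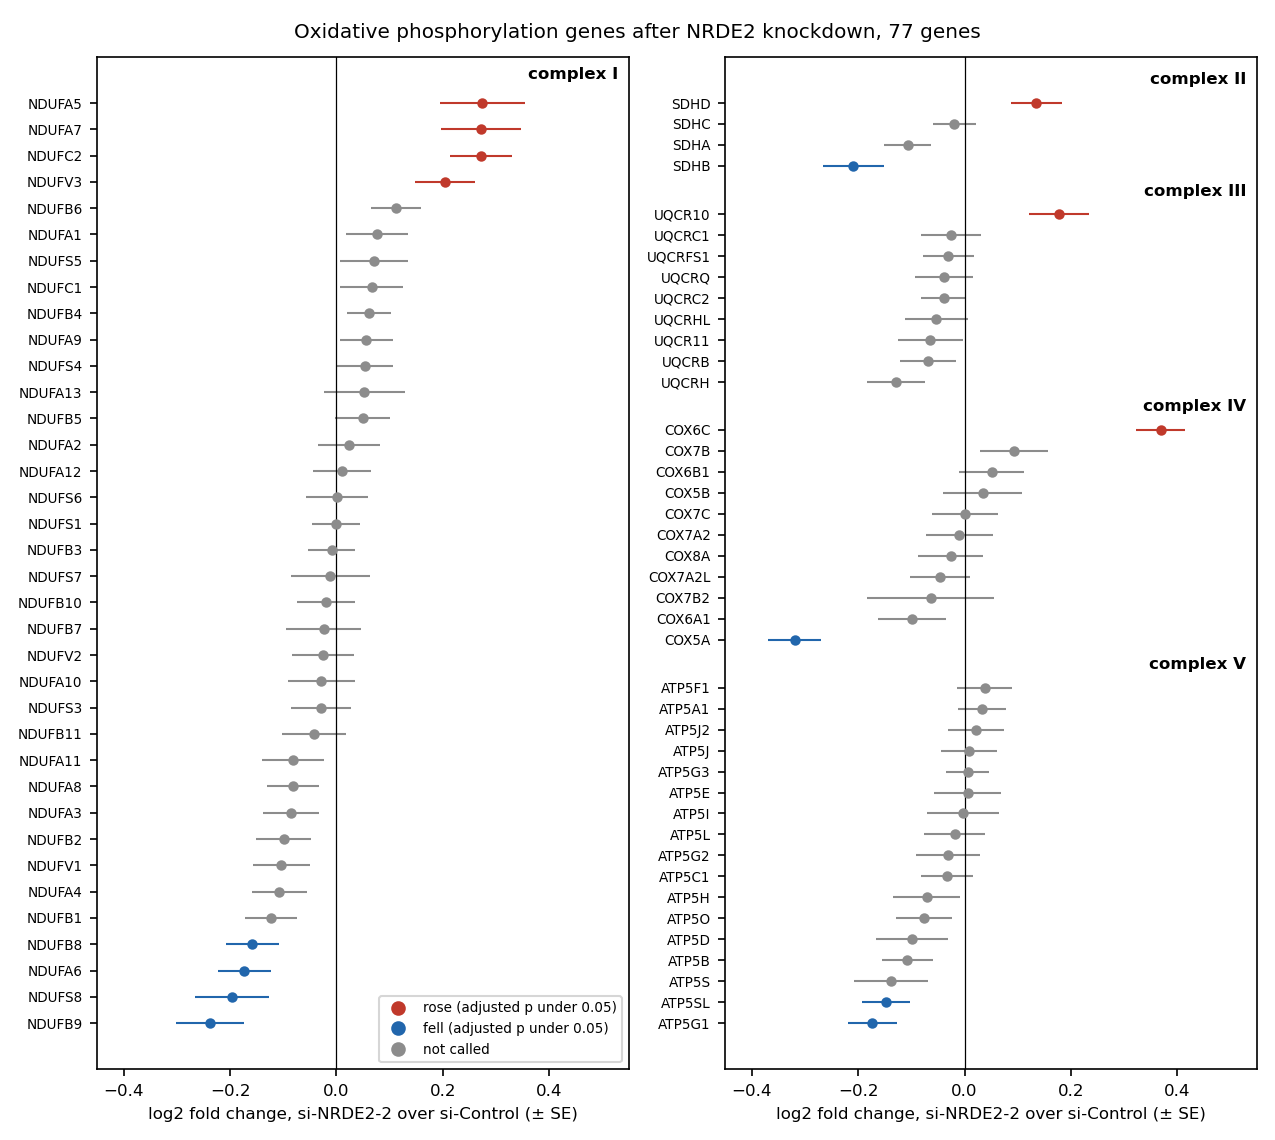
Log2 fold change of si-NRDE2-2 over si-Control for 77 of the 78 tested genes (x axis, ± SE, from limma on 3 libraries per group), ordered within complexes I to V; red genes rose, blue genes fell and grey genes were not called at an adjusted p under 0.05. Grey points make up 62 of the 77 shown, and the called genes of complexes I, II and IV lie on both sides of 0.

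The 37 genes of complex I, the NADH dehydrogenase, form a matrix arm that holds the electron path and a membrane arm that pumps protons. With si-NRDE2-2 8 of them changed (21.6%, against 44% of all genes tested), 4 up and 4 down, and the median was -0.012. In the matrix arm NDUFA5, NDUFA7 and NDUFV3 rose and NDUFS8 and NDUFA6 fell, 5 of 16 genes. In the membrane arm NDUFC2 rose and NDUFB9 and NDUFB8 fell, 3 of 20 genes. The one other gene, NDUFA4, is named for complex I but is now placed in complex IV, and it was not called (-0.11 ± 0.05, adjusted p = 0.115). Without si-Control replicate 3 the count in complex I was 12 (32.4%, against 46.6% of all genes), of which 9 rose and 3 fell.

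NDUFC2, an accessory subunit of the membrane arm, had 29.1, 29.5 and 29.8 FPKM in si-NRDE2-2 replicates 1, 2 and 3, against 22.6, 24.0 and 26.8 FPKM in si-Control replicates 1, 2 and 3 (0.27 ± 0.06, adjusted p = 0.00315). All 3 si-NRDE2-2 libraries were above all 3 si-Control libraries, and they lay within 1 FPKM of each other. This gene was called in each of the 16 alternatives. In GENCODE it shares its strand and sequence with the readthrough transcript NDUFC2-KCTD14, so reads could be split between them.

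NDUFV3, a small accessory subunit of the NADH-binding module, had 18.4, 19.7 and 19.3 FPKM in si-NRDE2-2 replicates 1, 2 and 3, against 15.7, 16.2 and 17.9 FPKM in si-Control replicates 1, 2 and 3 (0.20 ± 0.06, adjusted p = 0.0125). NDUFA7, another accessory subunit of the matrix arm, had 62.5, 57.5 and 59.6 FPKM in si-NRDE2-2 replicates 1, 2 and 3, against 43.7, 49.8 and 55.9 FPKM in si-Control replicates 1, 2 and 3 (0.27 ± 0.08, adjusted p = 0.0130). In both genes the groups did not overlap, and the highest control value was that of si-Control replicate 3. NDUFA5, also of the matrix arm and at a low level for a subunit of this complex, had 6.43, 7.24 and 8.07 FPKM in si-NRDE2-2 replicates 1, 2 and 3, against 6.11, 5.61 and 6.15 FPKM in si-Control replicates 1, 2 and 3 (0.27 ± 0.08, adjusted p = 0.0159). Its groups did not overlap either, but the gap was narrow, and 12 named pseudogenes of NDUFA5 could take some of its reads. In GENCODE NDUFA7 overlaps AC010323.1 on its own strand and RPS28 on the other, so its reads could be shared too. Leaving out single libraries ended some of these calls: NDUFV3 with si-NRDE2-2 replicate 2 left out (adjusted p = 0.0570) and with si-Control replicate 1 or 2 left out (adjusted p = 0.0508 and 0.0554), NDUFA7 without si-NRDE2-2 replicate 1 (adjusted p = 0.0527), and NDUFA5 without si-Control replicate 2 or si-NRDE2-2 replicate 3 (adjusted p = 0.0717 and 0.0623). With no filter on low values NDUFA7 and NDUFA5 were just past the threshold (adjusted p = 0.0516 and 0.0504).

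NDUFB9, a membrane-arm subunit of the LYR protein family, had 42.9, 42.2 and 45.6 FPKM in si-NRDE2-2 replicates 1, 2 and 3, against 47.6, 49.9 and 57.1 FPKM in si-Control replicates 1, 2 and 3 (-0.24 ± 0.06, adjusted p = 0.0112). NDUFA6, the LYR protein of the matrix arm, had 33.9, 35.0 and 34.0 FPKM in si-NRDE2-2 replicates 1, 2 and 3, against 36.6, 38.2 and 41.4 FPKM in si-Control replicates 1, 2 and 3 (-0.17 ± 0.05, adjusted p = 0.0157). Both were lower in all 3 si-NRDE2-2 libraries than in any control library and were called in each alternative, but si-Control replicate 3 was the highest control in both, and without it their log2 fold changes were -0.16 and -0.12. NDUFB8, a membrane-arm subunit whose protein is often used as a marker of assembled complex I, had 115, 114 and 110.1 FPKM in si-NRDE2-2 replicates 1, 2 and 3, against 119.9, 125 and 134 FPKM in si-Control replicates 1, 2 and 3 (-0.16 ± 0.05, adjusted p = 0.0235). Its groups did not overlap. This call ended with si-Control replicate 2 (adjusted p = 0.0650) or si-NRDE2-2 replicate 2 or 3 left out (adjusted p = 0.0689 and 0.0934) and with the replicate number as a block (adjusted p = 0.0548).

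NDUFS8, which carries iron-sulfur clusters of the electron path, had 128, 113 and 107 FPKM in si-NRDE2-2 replicates 1, 2 and 3, against 125, 131 and 142 FPKM in si-Control replicates 1, 2 and 3 (-0.20 ± 0.07, adjusted p = 0.0386). It is the only called gene whose groups overlapped, si-NRDE2-2 replicate 1 being above si-Control replicate 1. The call was lost in 8 of the 16 alternatives, among them those that left out si-Control replicate 2 or 3 (adjusted p = 0.0839 and 0.102) or si-NRDE2-2 replicate 2 or 3 (adjusted p = 0.121 and 0.150). It was also lost with median-ratio scaling, with no variance trend, with the replicate block and with no filter (adjusted p = 0.0501, 0.0730, 0.0675 and 0.1002). Among other core subunits of the matrix arm, NDUFS1, NDUFS3, NDUFS7, NDUFV1 and NDUFV2 were not called. Their log2 fold changes ran from -0.10 ± 0.05 (NDUFV1) to -0.00093 ± 0.05 (NDUFS1). Over all 29 uncalled genes of complex I the values ran from -0.12 (NDUFB1) to 0.11 (NDUFB6). Without si-Control replicate 3, NDUFA1, NDUFA13, NDUFB6, NDUFS4 and NDUFS5 rose as well, by 0.11 to 0.15.

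**Figure D3:**
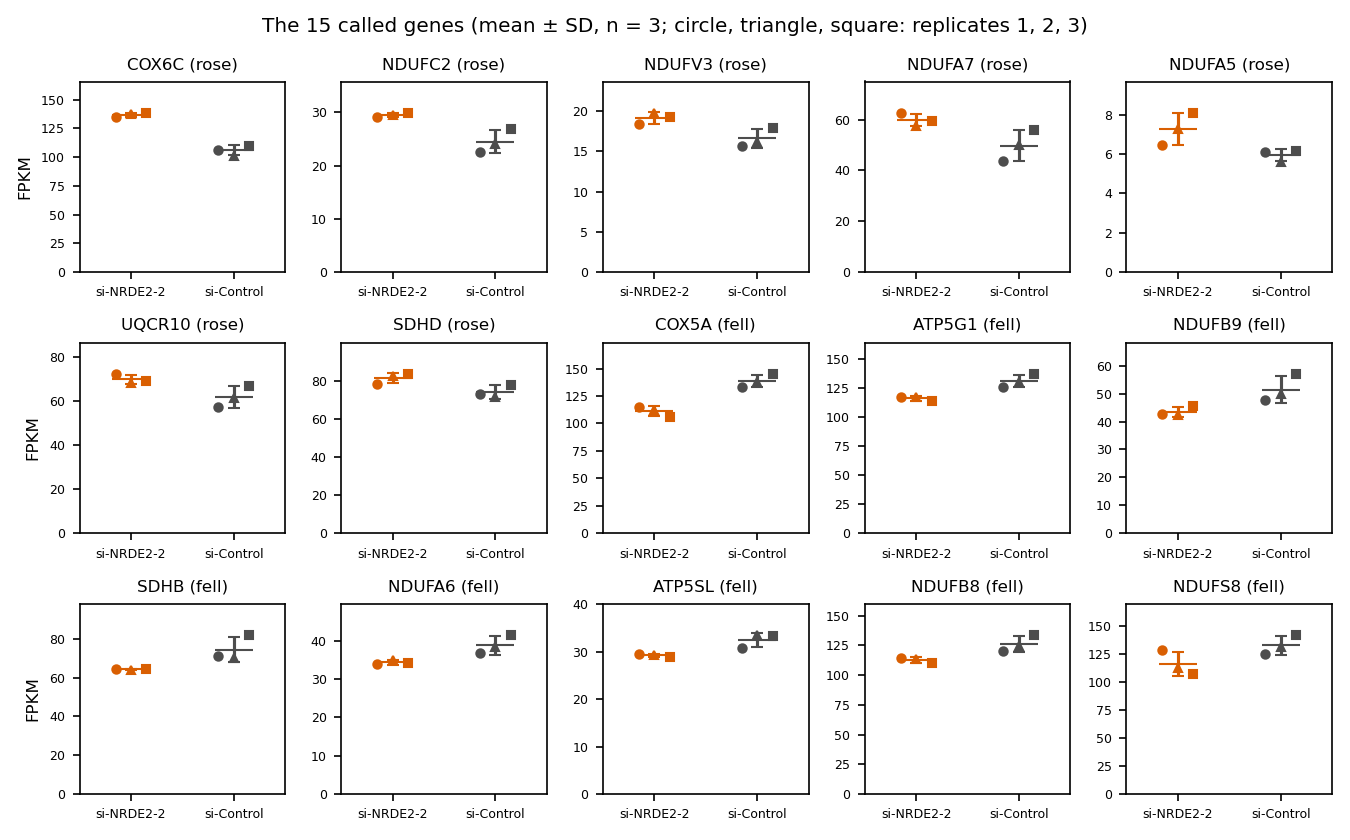
FPKM of the 15 called genes in each library (y axes start at 0), si-NRDE2-2 left of si-Control; circles, triangles and squares are replicates 1, 2 and 3, and lines with bars give the mean ± SD of 3 libraries. The groups are apart for 14 of the 15 genes and overlap for NDUFS8, and for most genes the square of si-Control replicate 3 is the highest control value.

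Complex II, succinate dehydrogenase, is also an enzyme of the TCA cycle and is encoded by 4 nuclear genes alone. Its catalytic subunits are the flavoprotein SDHA and the iron-sulfur protein SDHB, and SDHC and SDHD anchor them in the membrane. Of the 4 genes 1 rose and 1 fell (50% changed, against 44% of all genes tested). The counts were the same without si-Control replicate 3, against 46.6% of all genes. With 4 genes these shares cannot show a difference from all genes. SDHB had 64.2, 63.9 and 64.5 FPKM in si-NRDE2-2 replicates 1, 2 and 3, against 71.3, 70.2 and 81.8 FPKM in si-Control replicates 1, 2 and 3 (-0.21 ± 0.06, adjusted p = 0.0123). All si-NRDE2-2 libraries were below all si-Control libraries, and the gene was called in each of the 16 alternatives, with a log2 fold change of -0.14 without si-Control replicate 3. SDHD had 78.1, 82.5 and 83.3 FPKM in si-NRDE2-2 replicates 1, 2 and 3, against 73.0, 71.2 and 77.9 FPKM in si-Control replicates 1, 2 and 3 (0.14 ± 0.05, adjusted p = 0.0420). Its groups were apart by less than 1 FPKM, between si-NRDE2-2 replicate 1 and si-Control replicate 3. In GENCODE it overlaps AP002884.3 on its own strand and TIMM8B on the other and has 3 named pseudogenes, so reads could be shared. SDHD fell short of the threshold with si-Control replicate 1 or 2 left out (adjusted p = 0.0955 and 0.179), with si-NRDE2-2 replicate 2 or 3 left out (adjusted p = 0.144 and 0.142), with no filter or no variance trend (adjusted p = 0.0750 and 0.0730) and with the replicate block (adjusted p = 0.0626), and without si-Control replicate 3 it held at 0.17 (adjusted p = 0.00722).

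SDHA averaged 55.7 ± 1.02 FPKM in si-NRDE2-2 cells and 60.1 ± 2.43 FPKM in si-Control cells (SD, n = 3 each), with no overlap between the groups and no call (-0.11 ± 0.04, adjusted p = 0.0703). It was called with libraries scaled to the same FPKM total, with quantile normalization and after removal of GC and length trends (adjusted p = 0.0235, 0.0187 and 0.0474). SDHC averaged 25.9 ± 0.360 FPKM in si-NRDE2-2 cells and 26.3 ± 0.596 FPKM in si-Control cells (-0.02 ± 0.04, adjusted p = 0.726), and its groups overlapped. A ratio of 2 genes within a library does not depend on how the library was scaled, and the pairs of genes for such ratios were chosen after their values were seen. The ratio of SDHD to SDHB was 1.22, 1.29 and 1.29 in si-NRDE2-2 replicates 1, 2 and 3, against 1.02, 1.01 and 0.953 in si-Control replicates 1, 2 and 3, 1.27-fold higher in the knockdown. The order of the 2 genes was therefore the same in all si-NRDE2-2 libraries, and in the control libraries they were close to equal.

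Complex III, the cytochrome bc1 complex, carries electrons from ubiquinone to cytochrome c. Of its 9 genes 1 rose and 0 fell by limma at an adjusted p under 0.05 (11.1%, against 44% of all genes tested). At an unadjusted p under 0.05, for which no share of all genes was counted, there was 1 in each direction. The median was -0.039. UQCR10, a small accessory subunit, had 72.2, 68.1 and 69.1 FPKM in si-NRDE2-2 replicates 1, 2 and 3, against 57.4, 61.2 and 66.9 FPKM in si-Control replicates 1, 2 and 3 (0.18 ± 0.06, adjusted p = 0.0254). Its groups did not overlap, and the distance between them was about 1 FPKM, set by si-Control replicate 3. It fell short of the threshold with si-Control replicate 1 or 2 left out (adjusted p = 0.0913 and 0.0817), with si-NRDE2-2 replicate 1 left out (adjusted p = 0.0802), with no filter (adjusted p = 0.0649) and with no variance trend (adjusted p = 0.0533). The other 8 genes had log2 fold changes from -0.13 ± 0.06 (UQCRH, adjusted p = 0.0802) to -0.03 ± 0.06 (UQCRC1), all below 0 and not called. Among them are the Rieske iron-sulfur protein gene UQCRFS1 (-0.03 ± 0.05) and the large core proteins UQCRC1 and UQCRC2 (-0.04 ± 0.04). Without si-Control replicate 3, 1 of the 9 rose and 0 fell by limma (11.1% changed, against 46.6% of all genes). In that fit 3 of the 9 were below 0, so the shared direction rests on that library. UQCRHL is an intronless near copy of UQCRH, and its 50.6 ± 2.49 FPKM in si-NRDE2-2 cells and 52.6 ± 4.14 FPKM in si-Control cells may include reads of UQCRH, whose own level was 267 ± 3.58 FPKM in si-NRDE2-2 cells and 293 ± 19.5 FPKM in si-Control cells.

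Complex IV, cytochrome c oxidase, held both extremes, and 2 of its 11 tested genes changed (18.2%, against 44% of all genes tested). COX6C, a small subunit with 1 membrane span, had 135, 137 and 138 FPKM in si-NRDE2-2 replicates 1, 2 and 3, against 106, 101 and 110.1 FPKM in si-Control replicates 1, 2 and 3 (0.37 ± 0.05, adjusted p = 8.4e-05), 1.29-fold higher in the knockdown. The lowest si-NRDE2-2 library was above the highest control library by more than 20 FPKM. COX5A, a matrix-facing subunit that joins early in assembly, had 115, 113 and 106 FPKM in si-NRDE2-2 replicates 1, 2 and 3, against 133, 138 and 145 FPKM in si-Control replicates 1, 2 and 3 (-0.32 ± 0.05, adjusted p = 4.4e-04), 0.801 times the control level. Its highest si-NRDE2-2 library was below its lowest control library by more than 15 FPKM, and no other gene of oxidative phosphorylation had so large a fall.

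Both were called in each of the 16 alternatives, with the largest adjusted p at 0.00104 for COX6C and 0.00324 for COX5A. Without si-Control replicate 3 their log2 fold changes were 0.40 and -0.29. The ratio of COX6C to COX5A within a library was 1.17, 1.22 and 1.30 in si-NRDE2-2 replicates 1, 2 and 3, against 0.797, 0.734 and 0.759 in si-Control replicates 1, 2 and 3, which is 1.61-fold higher. COX6C was thus the more abundant of the 2 mRNAs in all si-NRDE2-2 libraries and the less abundant in all control libraries. GENCODE lists 17 named pseudogenes of COX6C, the most of any called gene, and the sources used here do not say how reads were divided among them.

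The other 9 tested genes of complex IV were not called, with log2 fold changes from -0.10 ± 0.06 (COX6A1) to 0.09 ± 0.06 (COX7B). They include the most abundant transcripts of the complex, COX7C at 736 ± 8.02 FPKM in si-NRDE2-2 cells and 737 ± 58.9 FPKM in si-Control cells and COX8A at 583 ± 8.74 FPKM in si-NRDE2-2 cells and 595 ± 44.0 FPKM in si-Control cells. The supercomplex factor gene COX7A2L had -0.05 ± 0.06, adjusted p = 0.532. Without si-Control replicate 3, COX7B, COX5B and COX6B1 rose as well, by 0.17, 0.13 and 0.11. That made 5 called genes of 11 (45.5%, close to the 46.6% of all genes in that fit). Of the isoforms known from muscle and heart, COX7A1 was listed at 0 in each library and COX6A2 in each but si-Control replicate 3. An exact 0 in this table can be a failed estimate, since the ribosomal protein gene RPS18 was also listed at 0 throughout. Of the testis isoforms, COX8C was at 0 to 0.054 FPKM and COX6B2 at 0.179 to 0.297 FPKM, all under the filter, while COX7B2 passed it with 4.21 ± 0.597 FPKM in si-NRDE2-2 cells and 4.42 ± 0.730 FPKM in si-Control cells and was not called (-0.06 ± 0.12, adjusted p = 0.694).

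Complex V, the ATP synthase, had 17 tested genes by the naming rule. Of these 2 fell and 0 rose by limma at an adjusted p under 0.05 (11.8% changed, against 44% of all genes). The 17 include ATP5S and ATP5SL, which are not subunits. ATP5SL is 1 of the 2 that fell, so of the subunits only ATP5G1 fell. Over the 17 the median was -0.031. At an unadjusted p under 0.05, for which no share of all genes was counted, 3 were lower and 0 higher. With si-Control replicate 3 left out, 2 fell and 0 rose (11.8% changed, against 46.6% of all genes). The median was then 0.026, on the other side of 0. The 5 genes of the catalytic head and central stalk (ATP5A1, ATP5B, ATP5C1, ATP5D and ATP5E), the 4 of the peripheral stalk (ATP5F1, ATP5H, ATP5J and ATP5O) and the 3 tested ones of the membrane part (ATP5I, ATP5J2 and ATP5L) were not called, with log2 fold changes from -0.11 ± 0.05 (ATP5B) to 0.04 ± 0.05 (ATP5F1). For 15 of the 17 the 95% confidence interval lay within 1.2-fold in either direction. ATP5B, the catalytic beta subunit, had 325, 328 and 322 FPKM in si-NRDE2-2 replicates 1, 2 and 3, against 339, 349 and 362 FPKM in si-Control replicates 1, 2 and 3 (-0.11 ± 0.05, adjusted p = 0.0903). Its groups did not overlap, and it was called with the same FPKM total, with quantile normalization and after removal of GC and length trends (adjusted p = 0.0111, 0.000998 and 0.0154). ATP5E, the most abundant of all 84 genes, averaged 918 ± 21.8 FPKM in si-NRDE2-2 cells and 916 ± 68.5 FPKM in si-Control cells (0.01 ± 0.06, adjusted p = 0.949).

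Subunit c, which forms the rotor ring, is encoded by ATP5G1, ATP5G2 and ATP5G3, whose mature proteins are the same. ATP5G1 had 117, 118 and 114 FPKM in si-NRDE2-2 replicates 1, 2 and 3, against 126, 130.0 and 137 FPKM in si-Control replicates 1, 2 and 3 (-0.17 ± 0.05, adjusted p = 0.0105). The si-NRDE2-2 libraries were all below the control libraries, and the call was lost only without si-NRDE2-2 replicate 3 (adjusted p = 0.0516). ATP5G3 averaged 47.9 ± 0.402 FPKM in si-NRDE2-2 cells and 47.7 ± 1.22 FPKM in si-Control cells, ATP5G2 was at 155 to 157 FPKM in the si-NRDE2-2 libraries and 147 to 174 FPKM in the si-Control libraries, and neither was called (0.01 ± 0.04 and -0.03 ± 0.06). ATP5SL, now called DMAC2, is named for the ATP synthase but serves in the assembly of complex I. It averaged 29.3 ± 0.329 FPKM in si-NRDE2-2 cells and 32.5 ± 1.51 FPKM in si-Control cells (-0.15 ± 0.05, adjusted p = 0.0209), with no overlap. It lost the call with si-Control replicate 2 (adjusted p = 0.101) or si-NRDE2-2 replicate 2 or 3 left out (adjusted p = 0.0702 and 0.0659). ATP5S, also no subunit, averaged 4.07 ± 0.284 FPKM in si-NRDE2-2 cells and 4.48 ± 0.184 FPKM in si-Control cells and was not called (-0.14 ± 0.07, adjusted p = 0.128). ATP5L2 was at 0.0295 to 0.213 FPKM and the readthrough row ATP5J2-PTCD1 at 0 to 0.441 FPKM, both under the filter.

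**Figure D4:**
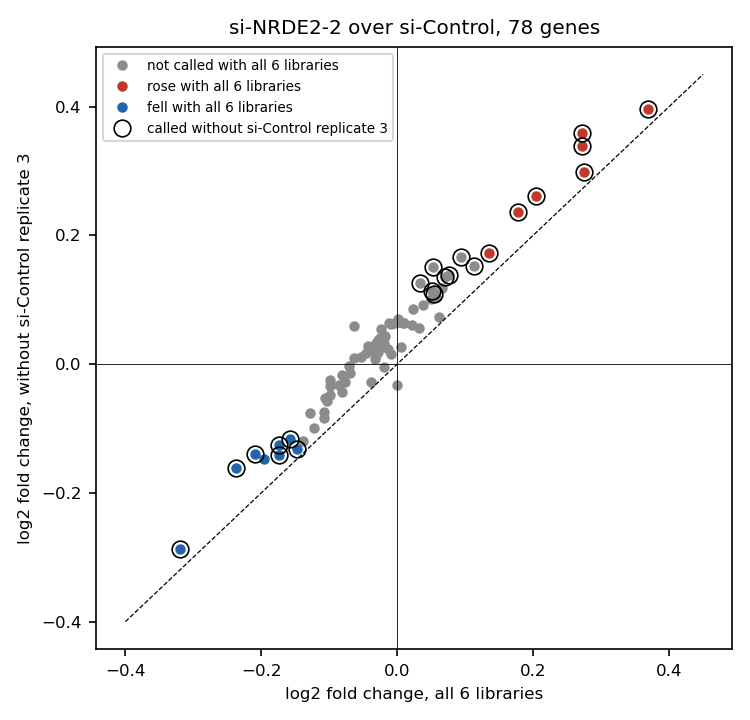
Log2 fold change of si-NRDE2-2 over si-Control with all 6 libraries (x axis) and without si-Control replicate 3 (y axis) for the 78 tested genes; red and blue points rose and fell with all 6 libraries, and rings mark calls made without that library. For 77 of the 78 genes the point lies above the dashed line of equal values, and of the 22 ringed points 14 are coloured and 8, all above 0, are grey.

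Summed over each complex, the mRNA level differed between the groups by less than the SD of the 3 control libraries, which si-Control replicate 3 widened. FPKM summed over the 84 genes averaged 11236 ± 137 with si-NRDE2-2 and 11381 ± 801 with si-Control (SD, n = 3 each), a ratio of 0.987, and made up 2.43% of all FPKM in the table. The ratio was 0.992 for complex I, 0.967 for complex II, 0.961 for complex III, 0.996 for complex IV and 0.982 for complex V. Without si-Control replicate 3 these were 1.03, 0.998, 0.999, 1.04 and 1.02, so the sums of complexes I, IV and V lay on the other side of 1. In complexes I and IV the difference was then larger than the control SD. Complex I summed to 3576 ± 52.1 FPKM with si-NRDE2-2 (n = 3) and 3462 ± 58.1 FPKM in the other 2 control libraries, and complex IV to 3319 ± 47.7 FPKM with si-NRDE2-2 and 3183 ± 90.7 FPKM in those 2 control libraries. The sum over all complexes was 11236 ± 137 FPKM with si-NRDE2-2 and 10930 ± 245 FPKM in those 2 libraries. These sums were not tested. Such sums are led by the most abundant transcripts, such as ATP5E, COX7C and COX8A. In bulk RNA fewer cells and less RNA per cell cannot be told apart, and FPKM show only the share of the sequenced RNA.

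**Figure D5:**
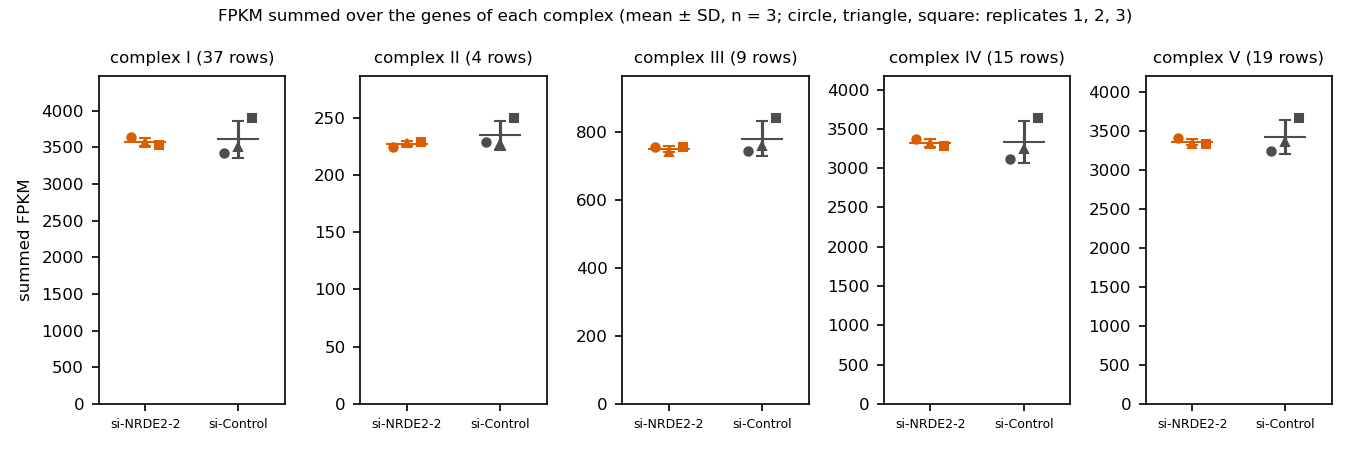
Summed FPKM of the genes of each complex in each library (y axes start at 0), si-NRDE2-2 left of si-Control; circles, triangles and squares are replicates 1, 2 and 3 and lines with bars the mean ± SD of 3 libraries. In each complex the square of si-Control replicate 3 is the highest of the 6 points, and the si-NRDE2-2 points lie close together.

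Other genes of the pathway, in lists written with earlier results of these data known, included larger changes than those of the subunits. Over all lists 41 of 100 tested genes changed (41%), 18 up and 23 down, against 44% of all genes tested. The median size of a change was 0.12 in the lists, against 0.059 for the subunits and 0.14 for all genes tested. The lists held 44 calls with si-Control replicate 3 left out, 23 up and 21 down, and 46.6% of all genes changed in that fit. Without si-Control replicate 2 or si-NRDE2-2 replicate 3, 9 or 11 genes of the lists rose. In those fits the share of all genes that changed was lower too, at 33.3% and 36%. Of the carriers and subunits outside the naming rule 2 of 7 changed (28.6%, against 44% of all genes tested), 1 up and 1 down. Leaving out si-Control replicate 3 gave 3 that rose (NDUFAB1, USMG5 and C14orf2) and 1 that fell, and without si-Control replicate 1, 0 rose and 2 fell. With quantile normalization 4 of the 7 changed and after removal of GC and length trends 5. CYC1, the cytochrome c1 of complex III, averaged 115 ± 2.74 FPKM in si-NRDE2-2 cells and 131 ± 6.51 FPKM in si-Control cells (-0.19 ± 0.05, adjusted p = 0.00781), a fall found in each alternative. Cytochrome c, CYCS, averaged 30.5 ± 3.10 FPKM in si-NRDE2-2 cells and 26.8 ± 0.877 FPKM in si-Control cells (0.18 ± 0.07, adjusted p = 0.0427), a rise that was lost in 8 of the 16 alternatives. Of these, 5 left out a library, namely si-Control replicate 1, 2 or 3 (adjusted p = 0.0693, 0.145 and 0.0514) or si-NRDE2-2 replicate 2 or 3 (adjusted p = 0.116 and 0.163). The main subunit 4 gene, COX4I1, was not called (-0.12 ± 0.06, adjusted p = 0.153).

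Of 15 assembly factors of complex I 5 fell and 0 rose by limma (33.3% changed, against 44% of all genes tested). Among all genes tested 23% fell and 20.9% rose. At an unadjusted p under 0.05, for which no share of all genes was counted, 6 of the 15 were lower and 0 higher. ACAD9, an assembly factor related to acyl-CoA dehydrogenases, averaged 9.74 ± 0.186 FPKM in si-NRDE2-2 cells and 14.9 ± 0.502 FPKM in si-Control cells (-0.61 ± 0.05, adjusted p = 3.3e-06), a larger fall than that of any subunit. NDUFAF3, which acts early on the matrix arm, averaged 56.2 ± 1.47 FPKM in si-NRDE2-2 cells and 69.5 ± 4.58 FPKM in si-Control cells (-0.30 ± 0.05, adjusted p = 8.1e-04). The others were TIMMDC1, NDUFAF2 and NDUFAF4, at -0.19 ± 0.05, -0.16 ± 0.04 and -0.19 ± 0.05. Without si-NRDE2-2 replicate 2, 3 of the 15 fell. In the fit without si-Control replicate 3, 5 fell and 1 rose, COA1 (0.13, adjusted p = 0.0185), and after removal of GC and length trends 6 fell and 1 rose.

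For complexes II and III 1 of 9 assembly genes rose and 3 fell (44.4% changed, against 44% of all genes tested). SDHAF1, which helps to load iron-sulfur clusters into SDHB, rose (0.27 ± 0.06, adjusted p = 0.00460). Among those that fell were the Rieske protein insertion factor BCS1L (-0.28 ± 0.05, adjusted p = 0.00101) and TTC19 (-0.17 ± 0.04, adjusted p = 0.00959). When si-Control replicate 3 was left out, 2 rose and 2 fell, SDHAF2 being the further one that rose (0.16, adjusted p = 0.00791), and after removal of GC and length trends 2 rose and 4 fell. For complex IV 5 of 22 rose and 2 fell (31.8% changed, against 44% of all genes tested). The membrane insertase gene COX18 and COA5 rose (0.28 ± 0.06, adjusted p = 0.00301 and 0.26 ± 0.05, adjusted p = 0.00315). COX11, a copper chaperone, and OXA1L, another membrane insertase, fell (-0.26 ± 0.05, adjusted p = 0.00120 and -0.20 ± 0.05, adjusted p = 0.00469). Without si-Control replicate 2, 2 rose and 3 fell, and without si-NRDE2-2 replicate 3, 3 rose and 2 fell. The counts were 7 and 2 without si-Control replicate 3. With the same FPKM total 6 rose and 4 fell, with quantile normalization 7 and 4, and after removal of GC and length trends 9 and 3. For the ATP synthase 1 of 4 fell and 0 rose (25% changed, against 44% of all genes tested), namely ATPAF2 (-0.20 ± 0.06, adjusted p = 0.0203). It was not called with si-NRDE2-2 replicate 3 left out and was called without si-Control replicate 3 (adjusted p = 0.0488).

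In ubiquinone synthesis 3 of 12 genes rose and 2 fell (41.7% changed, against 44% of all genes tested), with the same counts without si-Control replicate 3. PDSS1, which makes the isoprenoid tail, averaged 5.67 ± 0.420 FPKM in si-NRDE2-2 cells and 3.22 ± 0.137 FPKM in si-Control cells (0.79 ± 0.07, adjusted p = 7.3e-06), and COQ4 rose too (0.22 ± 0.06, adjusted p = 0.0113). ADCK3, also called COQ8A, averaged 8.36 ± 0.567 FPKM in si-NRDE2-2 cells and 12.6 ± 0.156 FPKM in si-Control cells (-0.59 ± 0.06, adjusted p = 1.4e-05), and COQ9 fell (-0.22 ± 0.05, adjusted p = 0.00645). In the TCA cycle 3 of 13 rose and 3 fell (46.2% changed, against 44% of all genes tested). The subunits of 1 enzyme, NAD-dependent isocitrate dehydrogenase, moved apart. Its catalytic subunit gene IDH3A averaged 16.0 ± 0.539 FPKM in si-NRDE2-2 cells and 10.8 ± 0.278 FPKM in si-Control cells (0.56 ± 0.05, adjusted p = 5.5e-06), while IDH3G averaged 21.3 ± 1.29 FPKM in si-NRDE2-2 cells and 30.6 ± 0.737 FPKM in si-Control cells (-0.52 ± 0.05, adjusted p = 1.5e-05) and IDH3B fell as well (-0.24 ± 0.04, adjusted p = 0.00122). FH, fumarase, was also among those that rose (0.13 ± 0.04, adjusted p = 0.0346), but not with si-Control replicate 1 or 2 left out (adjusted p = 0.109 and 0.129), nor with si-NRDE2-2 replicate 2 or 3 left out (adjusted p = 0.127 and 0.110). Without any 1 of these 4 libraries 1 gene of the list rose, as with no filter, with no variance trend and with the replicate block, and without si-Control replicate 3, 2 rose and 3 fell.

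Of 13 genes for mitochondrial DNA expression 4 rose and 3 fell (53.8% changed, against 44% of all genes tested). ELAC2, which processes mitochondrial tRNAs, and TFAM, which packages and transcribes mitochondrial DNA, rose (0.29 ± 0.04, adjusted p = 3.9e-04 and 0.23 ± 0.05, adjusted p = 0.00330), and the mitochondrial RNA polymerase gene POLRMT averaged 8.03 ± 0.383 FPKM in si-NRDE2-2 cells and 11.3 ± 0.307 FPKM in si-Control cells (-0.49 ± 0.05, adjusted p = 3.5e-05). PNPT1 fell as well (-0.28 ± 0.07, adjusted p = 0.00622). With si-NRDE2-2 replicate 2, si-Control replicate 1 or si-Control replicate 2 left out, 2 of this list rose. Without si-NRDE2-2 replicate 1, 4 rose and 5 fell, and without si-Control replicate 3, 4 rose and 3 fell. The mitochondrially encoded subunits were not analysed here. Of 6 tested regulators 1 rose and 3 fell (66.7% changed, against 44% of all genes tested). NRF1 (-0.10 ± 0.06, adjusted p = 0.215) and YY1 (0.02 ± 0.04, adjusted p = 0.734) were not called by limma. The 2 subunits of GABP moved in opposite directions. GABPA, the DNA-binding subunit, averaged 6.64 ± 0.811 FPKM in si-NRDE2-2 cells and 3.64 ± 0.0329 FPKM in si-Control cells (0.84 ± 0.08, adjusted p = 1.6e-05), and its partner GABPB1 averaged 10.3 ± 0.154 FPKM in si-NRDE2-2 cells and 13.8 ± 0.183 FPKM in si-Control cells (-0.42 ± 0.04, adjusted p = 3.0e-05). PPRC1, a coactivator related to PGC-1, averaged 10.2 ± 0.395 FPKM in si-NRDE2-2 cells and 13.7 ± 0.747 FPKM in si-Control cells (-0.43 ± 0.06, adjusted p = 1.2e-04). Of the 6, 1 rose and 2 fell without si-Control replicate 3.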

How the data were processed

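Values are FPKM as deposited, computed by the authors per gene and library. The build was hg19, and the tools named were DESeq2 1.10.1 and STAR 2.5.1b, per the submitters' processing notes; which program made the FPKM is not given there. Another 4 columns of the table were not used. A gene was tested where 3 or more libraries reached 1 FPKM, 159 rows of small RNAs being left out. log2(FPKM + 0.1) was fitted with limma 3.58.1 (R 4.3.3, trended robust prior, group as the only term) with Benjamini-Hochberg adjustment over 11789 genes, and the step was tested on simulated data. Log2 fold changes, given ± SE, understate changes of low genes. Depth was estimated from 2617 low genes, of which 1332 stepped in multiples of 1 smallest value within 0.02. Transcript length, GC content, 3′ UTRs and overlapping genes came from GENCODE 29 and promoters from RefSeq, both on GRCh38. Of the called genes NDUFA6, NDUFA7, NDUFB8, NDUFB9, NDUFC2, NDUFS8, SDHD, COX6C and ATP5G1 overlap another annotated gene. The genes, the lists and the tests were chosen with earlier results of these data known. Named with full statistics were NRDE2, NDUFB8, COX5A, ATP5B, the SDH genes, up to 4 called genes per direction in each other complex, and up to 2 per direction in each other list, by adjusted p. Others named were chosen after their values were seen. The gene missing from the plot of fold changes by complex counts in all totals and is not reported here by name.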

Additional observations from a re-analysis of the deposited data

How the results depend on the processing

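Of the 15 called genes 6 (COX6C, COX5A, NDUFC2, NDUFB9, NDUFA6 and SDHB) were called the same way in each of the 16 alternatives and 9 lost the call in at least 1. The values below are counts of called genes. With the same FPKM total there were 25 (17 falling, 14 in complex I and 2 in complex III), with quantile normalization 25 (18 falling, 13 in complex I, 2 in complex III and 4 in complex V), and with GC and length trends removed 25 (11 rising, 14 falling, 13 in complex I, 2 in complex III and 4 in complex IV). All 15 were among the last 25. With no filter on low values 3 rose, 5 were in complex I, 1 in complex II and 0 in complex III, and without variance trend and robust prior 1 was in complex II and 0 in complex III. Leaving out single libraries gave 9 to 22 in all (3 to 15 rising, 4 to 9 falling), 5 to 12 in complex I, 1 to 2 in complex II, 0 to 1 in complex III, 2 to 5 in complex IV and 0 to 2 in complex V; the highest total was that without si-Control replicate 3, and the lowest were those without si-Control replicate 2 or si-NRDE2-2 replicate 3. The median log2 fold change ran from -0.068 (without si-Control replicate 1) to 0.031 (without si-Control replicate 3). A higher or lower pseudocount, a mean of at least 5 FPKM and median-ratio scaling left the count at 15. Of the 15 called genes 0 changed direction in any alternative, while of the 63 that were not called 22 lay on the other side of 0 without si-Control replicate 3 and 11 with GC and length trends removed.

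With the replicate number as a block 12 genes changed, 6 up and 6 down, 1 of them in complex II, and 4686 of all genes. Correlations of deviations between same-numbered libraries were -0.12, 0.11 and -0.12 for numbers 1, 2 and 3. Between libraries of different numbers they ran from -0.11 to 0.17. With 3 libraries per group these values cannot show whether the numbers pair samples. The causes of these differences were not tested. With 3 libraries per group and a median standard error of 0.056, changes of a few percent in a single subunit are not detectable.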
